A study of Homo sapiens with 41 samples.

Results

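In MDA-MB-231 cells, 564 regions carried an RNA polymerase II (PolII) peak in both libraries treated with Nexturastat A and in neither untreated library. They were 564 of 50157 regions (1.12%) obtained by merging the 4 PolII peak lists of the treated and untreated cells over chromosomes 1 to 22 and X. Of these gained regions, 329 lay inside the bodies of protein-coding genes, 163 lay within 1 kb of an end of such a gene and 72 lay between genes. The regions were chosen by presence of a peak in these 4 lists, so the PolII values of the treated and untreated libraries are given as a description and without a test. In the reverse direction, 51 regions (0.102%) had a peak in both untreated lists and in neither treated list.

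MDA-MB-231 is an established line of triple-negative breast cancer epithelium. The treated cells received Nexturastat A, a hydroxamate inhibitor of the deacetylase HDAC6, at 5 µM for 2 days, and the Ctrl cells were the same line without the compound. A second pair of untreated derivatives, named shHDAC6 and shCtrl, carried a hairpin against HDAC6 and a control hairpin, and the labels do not say whether a derivative is 1 clone or a pool. The lists hold no transcript level, so the loss of HDAC6 in shHDAC6 cells was not checked here. PolII was immunoprecipitated with antibody 4H8 against the C-terminal domain (CTD) of Rpb1, with 2 libraries in each of the 4 groups and 100000 cells per library. Lists of open chromatin (ATAC, 3 libraries in each of the same 4 groups), acetylated histone H3 (pan-acetyl ChIP, 2 treated and 2 untreated) and HDAC6 (ChIP, 2 treated, 2 shHDAC6 and 2 untreated, and CUT&Tag, 2 untreated) were not used to choose the regions. The labels do not state that replicates were separate cultures, so every spread given here may be technical.

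Rpb1 is the largest subunit of PolII, and its CTD is a repeated tail that is phosphorylated as the enzyme leaves the promoter and elongates. In most active genes PolII is densest just after the start, where it pauses, is thinner along the body, and gathers again past the far end, where the transcript is cleaved and the enzyme is released. HDAC6 is mainly a cytoplasmic deacetylase of tubulin and other proteins, while the acetylation of histone H3 measured by the pan-acetyl antibody is a mark of active promoters and enhancers.

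Only 8 gained regions touched the start of a gene and no far end, and the promoters of the 4 strongest of them are shown as the promoters next to the gained regions that touch no far end. Sequences run from 250 bases before to 50 bases after the start, are credited to RefSeq (build GRCh38.p14), and are written 5′ to 3′ on the strand of the gene. Capitals mark matches on either strand to the TATA box (TATAAA), the CCAAT box, the GC box (GGGCGG), the AP-1 motif (TGACTCA), the core of the cyclic AMP response element (TGACG) and the E-box (CACGTG). None of these 6 motifs contains another.
ECHDC2, chr1:52921725-52922024, minus strand: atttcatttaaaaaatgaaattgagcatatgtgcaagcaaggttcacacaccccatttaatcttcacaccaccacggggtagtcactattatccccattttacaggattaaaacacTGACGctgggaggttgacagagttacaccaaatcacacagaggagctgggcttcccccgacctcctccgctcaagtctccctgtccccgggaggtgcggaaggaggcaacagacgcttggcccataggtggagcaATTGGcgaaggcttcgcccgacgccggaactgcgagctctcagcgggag
TFPI, chr2:187554386-187554685, minus strand: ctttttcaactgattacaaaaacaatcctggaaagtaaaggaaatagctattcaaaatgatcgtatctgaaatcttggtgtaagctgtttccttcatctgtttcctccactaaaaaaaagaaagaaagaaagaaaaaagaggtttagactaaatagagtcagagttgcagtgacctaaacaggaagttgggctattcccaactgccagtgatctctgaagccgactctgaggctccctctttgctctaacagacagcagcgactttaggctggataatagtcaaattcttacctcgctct
GPR75, chr2:53859918-53860217, minus strand: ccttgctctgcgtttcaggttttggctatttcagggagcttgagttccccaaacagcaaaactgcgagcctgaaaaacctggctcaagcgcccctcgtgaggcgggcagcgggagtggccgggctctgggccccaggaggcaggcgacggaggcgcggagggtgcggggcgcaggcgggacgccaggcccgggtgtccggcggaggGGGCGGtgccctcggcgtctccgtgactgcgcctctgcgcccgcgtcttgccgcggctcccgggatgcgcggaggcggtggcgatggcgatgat
S100P, chr4:6693628-6693927, plus strand: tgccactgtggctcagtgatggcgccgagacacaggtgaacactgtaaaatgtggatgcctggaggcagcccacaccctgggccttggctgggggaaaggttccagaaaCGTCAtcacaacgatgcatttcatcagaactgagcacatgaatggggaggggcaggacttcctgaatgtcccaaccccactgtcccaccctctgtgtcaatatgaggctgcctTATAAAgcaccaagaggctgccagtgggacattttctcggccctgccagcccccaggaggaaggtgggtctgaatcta
The gained region covered 30 of the 300 bases at ECHDC2, 284 at TFPI and all 300 at GPR75 and at S100P. The TFPI window held none of the 6 motifs and had 39.3% G and C, against 70.7% in the GPR75 window, which held GGGCGG. S100P held TATAAA and TGACG, and ECHDC2 held CCAAT and TGACG. Over the 21 promoters of the table whose gene start lay within 1 kb of a gained region, 11 (52.4%) held GGGCGG and 2 (9.52%) held TATAAA. Over all 15812 coding promoters of the table the shares were 58.5% and 9.64%. CCAAT was in 28.6% of the 21 and 36.3% of all, TGACG in 33.3% and 29.4%, CACGTG in 14.3% and 8.87%, and TGACTCA in 4.76% and 3.67%. Median G and C content was 62.7% in both sets. GPR75 and its read-through gene GPR75-ASB3 have the same promoter sequence, and both are counted among the 21.

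The gained regions were placed mostly away from gene starts. Of the 8240 merged regions that touched starts alone, 6340 were in all 4 lists, and the rule leaves out every region with a Ctrl peak. The contrast with regions in all 4 lists therefore follows in part from the rule. Of the 564, 329 (58.3%) lay in gene bodies, 163 (28.9%) at gene ends and 72 (12.8%) between genes, whereas of the 12213 regions present in all 4 lists, 76.9% lay at gene ends, 12.7% in bodies and 10.4% between genes. As shares of all merged regions of each class, the gained ones were 1.54% in bodies, 1.07% at ends and 0.533% between genes. Strand was known for 15811 of 19970 protein-coding genes (79.2%), and the start and far end were the outer ends of the gene record. The start of the promoter table lay within 1 kb of that outer start for 90.4% of these genes, so a second promoter inside a gene counts here as body.

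**Figure D1:**
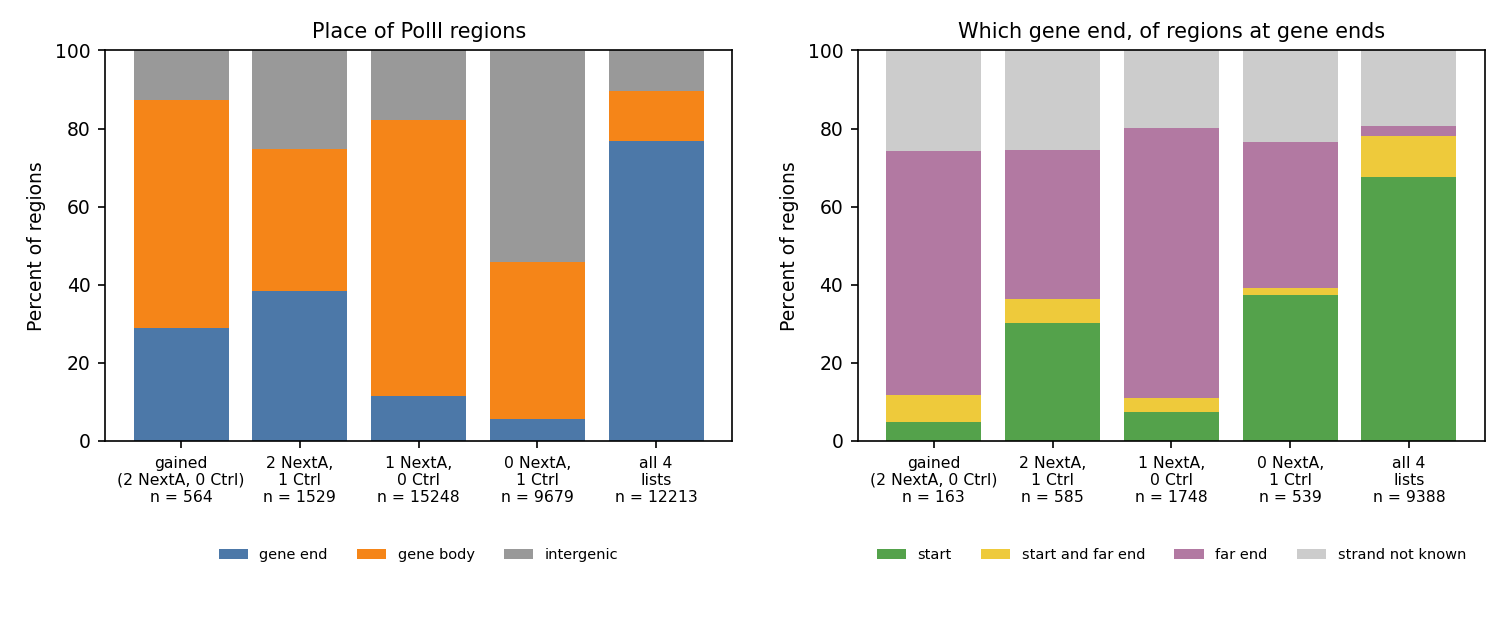
Stacked bars give the percent of PolII regions by place (left) and, for regions within 1 kb of a gene end, by which end (right), for gained regions and for regions with other patterns of peaks over the 2 Nexturastat A (NextA) and 2 Ctrl lists, with n under each bar. Gained regions were mostly in bodies (58.3%) and at far ends (62.6% of those at ends), and regions in all 4 lists mostly at starts.

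Among the 163 gained regions at gene ends, 102 (62.6%) touched far ends alone, 8 (4.91%) starts alone, 11 a start and a far end, and 42 a gene whose strand was not known. Among the 9388 gene-end regions present in all 4 lists, 2.62% touched far ends alone and 67.5% starts alone. Of all merged regions at a far end alone, 3.94% were gained, and of those at a start alone, 0.0971%. The lean depends on Ctrl list 2, since without it 165 gained regions touched far ends alone and 155 starts alone. The same lean to far ends was present in the 1748 gene-end regions with a peak in 1 treated list and no Ctrl list, of which 69.2% touched far ends alone and 7.44% starts alone. In the 539 gene-end regions with a peak in 1 Ctrl list and no treated list, each kind made up 37.3%. Among the 7 lost regions at gene ends, 6 touched a start alone and 0 a far end.

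Inside genes the gained regions were more frequent towards the far end. For 268 gained regions in the body of a single gene of known strand, 39, 38, 48, 67 and 76 fell in successive stretches of 20% of the gene from its start. Their median position was 64.2% of the gene length from the start. For 1297 body regions present in all 4 lists it was 37.8%, for 448 regions with both treated lists and 1 Ctrl list 50%, for 8613 with 1 treated list and no Ctrl list 49.5%, and for 3114 with 1 Ctrl list and no treated list 47.0%. The rise along the gene was therefore seen in the gained regions and not in the regions called in a single list of either group, with no test of that difference. Regions share genes and are not independent, and presence in the 4 lists defines all of these sets.

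**Figure D2:**
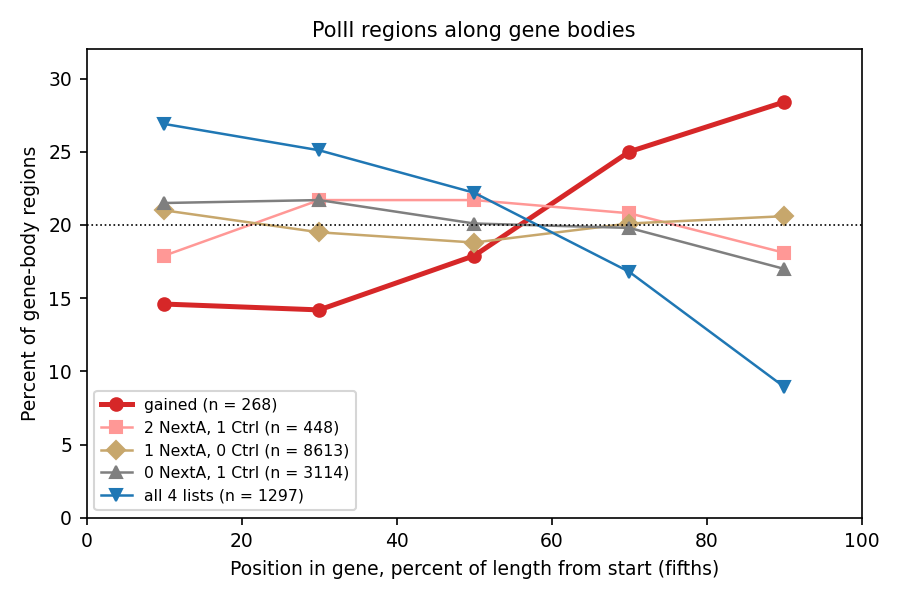
Percent of gene-body PolII regions in each 20% of the gene from start (left) to far end (right), with n in the legend and a dotted line at an even spread of 20%. The gained regions held 14.6% in the 20% next to the start and 28.4% in the 20% next to the far end, while regions in all 4 lists held 26.9% and 8.94%.

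Between genes, the nearest gene end was a far end for 37 of the 72 gained regions (median distance 8772 bp), a start for 21 (median 30564 bp) and an end of unknown strand for 14. A far end lay within 10000 bp of 20 of them and a start within 10000 bp of 3, and 20 were more than 50000 bp from any end of a coding gene. A gene of another type overlapped 31 of the 72. These counts were not made for other regions between genes, so they do not show a trait particular to the gained ones.

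The gained peaks were weak. The authors' fold over background of the highest peak in each region had a median of 3.11 (range 2.21 to 5.45) in the treated list 1 and 2.47 (range 1.59 to 6.11) in the treated list 2. The −log10 q had a median of 1.96 (lowest 1.02) in list 1 and 1.03 (lower quartile 0.589, lowest 0.123) in list 2, which was called on p. For many gained regions the peak in list 2 was thus weakly backed. Ranked within its own list, the median gained region stood at the 22.9th percentile of list 1 and the 15.5th of list 2, and 1 of the 564 was above the 50th percentile in both lists. The mean of these percentiles, called strength below, had a median of 20.4 for gained regions, 34.6 for regions with both treated lists and 1 Ctrl list, and 74.9 for regions in all 4 lists. Their median length was 1455 bp, against 2055 bp for regions in all 4 lists. The nearest Ctrl peak was at a median distance of 4212 bp, within 1000 bp for 68 gained regions and farther than 10000 bp for 156.

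The count depends on these weak peaks. With peaks of −log10 q of 5 or more, 29 regions were gained and 52 lost, so that losses outnumbered gains, and with equal list length 297 were gained and 41 lost. Leaving out Ctrl list 1 gave 1200 gained and 6809 lost, leaving out Ctrl list 2 1467 and 2989, leaving out treated list 1 4486 and 460, and leaving out treated list 2 12379 and 367. A group left with 1 list is judged present or absent on that list alone. This loosens the rule in both directions and raises both counts by construction, so these counts do not bear on the balance of gains and losses.

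The treated lists held 31198 and 25373 peaks covering 47.9 and 37.4 Mb, the Ctrl lists 22926 and 27786 peaks covering 26.1 and 35.5 Mb. In peak number the groups overlapped, and in covered length both treated lists were above both Ctrl lists. Judged by the deposited peak scores, list 1 of each group was called on q and list 2 on p. List 1 kept all of its peak numbering, and list 2 kept 75.5% in the treated and 88.5% in the Ctrl list. In treated and untreated cells PolII was at the gene ends of 6 of 6 genes expected in this line (VIM, CD44, KRT8, KRT18, AXL and CAV1) in all 4 lists. Of 4 leukocyte markers 0 had a peak in any of the 4 lists, and of 3 neuronal markers SYP had one in all 4 and SNAP25 in 2. Of the endothelial markers, PECAM1 had a peak in 1 list and CDH5 in none. ESR1 had none and PGR had one in 1 Ctrl list. The part of such differences in the gained regions was not tested.

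Outside the rule by a single list were regions far stronger than any gained one. At FRMD4A, a scaffold protein of cell polarity, the authors' fold was 9.30 and 27.6 in the treated lists, with no peak in Ctrl 1 and 19.4 in Ctrl 2. TMPRSS4, a membrane serine protease, had 8.55 and 12.5, no peak in Ctrl 1 and 13.3 in Ctrl 2. PCOLCE2, a collagen-processing enhancer, had 4.98 and 13.7, no peak in Ctrl 1 and 13.3 in Ctrl 2, and a region shared by IGBP1C and TEX14 had 9.13 and 29.1 against no peak and 19.8. In all 4, the Ctrl peak that kept the region out stood among strong peaks. In all, 904 regions missed the rule by a peak in Ctrl 2 alone and 625 by a peak in Ctrl 1 alone. Just inside the rule, the weakest gained regions were in the body of ATP13A1, an ATPase of the endoplasmic reticulum, at 2.46 and 1.92, at the far end of TRPC4AP with an end of MYH7B at 2.36 and 1.99, and 37414 bp from EGFL7 at 2.21 and 2.01.

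At gene starts, the strongest gained region was that of ECHDC2 (chr1:52921059-52921754), a mitochondrial enzyme of the enoyl-CoA hydratase family, with a fold of 5.14 and 2.02 in the treated lists and no peak in Ctrl, shHDAC6 or shCtrl cells. TFPI (chr2:187553126-187554669), the inhibitor of the tissue factor pathway of coagulation, had 3.96 and 2.69 and no PolII peak elsewhere, with an ATAC peak in 3 of 3 treated and 1 of 3 Ctrl lists. GPR75 (chr2:53859200-53860366), an orphan G-protein-coupled receptor that shares its start with the read-through gene GPR75-ASB3, had 3.60 and 3.14, and 2.4 in shCtrl list 2. S100P (chr4:6692915-6694862), a calcium-binding protein of epithelial cancers, had 3.78 and 2.59 and no peak in the other 6 PolII lists. The other 4 start regions were at PRSS53 and ADAM8, proteases, at STAP2, a signalling adaptor, and at AMPD3, an AMP deaminase, with treated folds of 2.48 to 3.26 in list 1 and 1.88 to 2.56 in list 2. Of these 8 start regions, 6 had an acetylated H3 peak in the treated list 1, 0 in the treated list 2 and 0 in either Ctrl list. An ATAC peak was absent from all treated and Ctrl lists at 6 of them, all but ECHDC2 and TFPI.

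At far ends, SSR4 (chrX:153798672-153800644), a subunit of the translocon-associated complex, had a fold of 3.85 and 3.72 in treated cells, no Ctrl peak, 4.96 and 3.55 in shHDAC6 and 3.22 and 3.19 in shCtrl cells. The nearest Ctrl peak was 791 bp away. ZNF589, a zinc finger gene (chr3:48271851-48272635), had 3.89 and 3.14 in treated, 1.99 and 1.95 in shHDAC6 and 2.91 and 2.92 in shCtrl cells. LSM7, a subunit of the ring that binds U6 RNA (chr19:2320683-2322426), had 3.76 and 3.01 in treated, 2.26 and 2.09 in shHDAC6 and 2.49 and 2.32 in shCtrl cells. Each of these 3 regions thus had a peak in 6 of the 8 PolII lists and was missing from the Ctrl lists alone.
Some far-end regions joined the ends of a pair of genes that converge. One lay between GTPBP4, a GTPase of ribosome assembly, and IDI2, an isopentenyl-diphosphate isomerase, over 3612 bp, with 4.45 and 2.47 in treated, 3.07 and 3.46 in shHDAC6 and 2.95 and 3.15 in shCtrl cells. Another lay at the shared far end of IPP, an actin-binding kelch protein, and TMEM69, with 4.04 and 2.90 in treated and 3.58 and 2.63 in shCtrl cells and no shHDAC6 peak. Strand was not known for the strongest gene-end region of all, at TNFSF8 (chr9:114892749-114899536), the ligand of CD30, with 5.45 and 2.73 in treated cells, no hairpin-line peak and the nearest Ctrl peak 86537 bp away. Its −log10 q was 10.3 in the treated list 1 and 0.532 in list 2. It was open in 3 of 3 treated and 3 of 3 Ctrl ATAC lists. PPP2R2A, a regulatory subunit of protein phosphatase 2A, had 3.97 and 2.90 in treated cells alone, and C8orf89 had 4.38 and 2.50 in treated, 3.08 and 3.34 in shHDAC6 and 2.00 and 1.99 in shCtrl cells.

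Of the 5 longest gained regions, 4 were also at far ends. MLLT1, which encodes the acetyl-lysine reader ENL of the super elongation complex, had 11117 bp (chr19:6210779-6221895) at a fold of 2.70 and 2.00. BRAT1, a DNA damage response factor, had 9924 bp at 3.27 and 2.39, and PXN, which encodes the focal adhesion protein paxillin, 8657 bp at 3.32 and 2.60. A region of 7136 bp (chr17:44073085-44080220) covered the far end of G6PC3, a glucose-6-phosphatase, and an end of HDAC5, a class IIa deacetylase. Its fold was 2.91 and 5.65 in treated, 2.32 and 3.03 in shHDAC6 and 3.16 and 3.0 in shCtrl cells. A merged region is as long as the longest run of overlapping peaks of any list, and with each treated list required to cover 50% of the region, 205 of the gained regions were left and 38 at far ends alone.

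In gene bodies, the strongest gained region was in EIF2S3 (chrX:24073306-24073842), the gamma subunit of translation initiation factor eIF2, at 78% of the gene length. It had 5.19 and 3.96 in treated cells and 2.79 in shCtrl list 1. DKC1, the pseudouridine synthase dyskerin (chrX:154773612-154775730), had 3.75 and 4.26 in treated, 1.95 and 2.19 in shHDAC6 and 2.06 and 2.13 in shCtrl cells. GATA6, a zinc finger transcription factor, held a region at 77.8% of its length with 4.46 and 2.88 in treated cells alone, and a region at 23.8% (chr18:22176434-22178431) with 3.46 and 4.60 in treated, 2.35 and 2.54 in shHDAC6 and 3.07 and 3.30 in shCtrl cells. The −log10 q of the second region was 2.02 in the treated list 1 and 19.4 in list 2, the widest gap among these named genes.
TSC22D1, a leucine zipper regulator, had 4.08 and 3.16 at 71.0% of its length, and MBNL3, a muscleblind splicing factor, 4.64 and 2.60 at 7.61%, both in treated cells alone. In the treated list 2 the −log10 q was 1.38 at TSC22D1 and 0.242 at MBNL3. Both had an acetylated H3 peak in 1 treated list and in no Ctrl list. TAF15, an RNA-binding protein of the FET family, had 4.15 and 2.77, and HNRNPUL1, an RNA-binding protein of the nucleus, 3.80 and 2.99 at 48.8% of its length, with shCtrl peaks in 1 list at TAF15 and in both at HNRNPUL1, which also had a peak in 1 shHDAC6 list.

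Body regions came in groups in some genes: 292 genes held a body region (1.46% of 19970 coding genes), and 38 of them held 2 or more. ANKRD11, a chromatin regulator, held 5 in its body and 1 at its far end, and CARS1, the cysteinyl-tRNA synthetase, 4 and 1. IARS1, the isoleucyl-tRNA synthetase, and INTS1, a scaffold subunit of the Integrator complex that cleaves nascent RNA, held 3 each. Folds of these body regions lay between 2.78 and 3.67 in the treated list 1 and between 2.06 and 3.56 in list 2. In ANKRD11, peaks covered 71.9 and 53.8 kb of the gene in the treated lists, 11.1 and 10.0 kb in Ctrl, 1.9 and 5.5 kb in shHDAC6 and 20.4 and 16.4 kb in shCtrl cells. ATAC peaks covered 6.2, 6.9 and 6.5 kb of ANKRD11 in treated and 5.7, 6.8 and 8.5 kb in Ctrl lists, and these groups overlapped. ANKRD11 and CARS1 were named for their number of gained regions. Their PolII differences between treated and Ctrl lists therefore follow from that choice and are not set against ATAC. In CARS1, PolII peaks covered 42.1 and 10.9 kb in the treated lists, 0.6 and 3.2 kb in Ctrl, 0.7 and 0.7 kb in shHDAC6 and 4.8 and 1.4 kb in shCtrl cells.
EGFR, the epidermal growth factor receptor, held the longest body region (8058 bp at 70.3% of the gene), with a fold of 3.53 in the treated list 1 and 2.03 in list 2. Its treated lists were unlike each other: list 1 covered 145.3 kb of the gene with 37 peaks and list 2 covered 3.6 kb with 5 peaks, against 18.6 and 2.5 kb in the Ctrl lists. The gain at EGFR thus rests mainly on 1 library.

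Between genes, the strongest gained region lay 1468 bp from ZNF587B, a zinc finger gene, with 3.57 and 5.34 in treated cells and 2.89 in shHDAC6 list 2. The next, 14903 bp past the far end of METRNL, a secreted factor (chr17:83110026-83110560), had 3.75 and 4.11 in treated cells and no peak in the other 6 PolII lists, and was the only gained region with a −log10 q of 5 or more in both treated lists (6.56 and 7.40). It was open in all 3 treated and all 3 Ctrl ATAC lists, as were the gained regions nearest to ENC1 and to RUNX1, a transcription factor of blood and epithelium. Regions near RPH3AL and FUT8, the core fucosyltransferase, had 3.96 and 2.76 and 4.01 and 2.65.

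Most genes with a gained region in the body or at the far end had a PolII peak at the start in both Ctrl lists. In 369 such genes of known strand with no gained region at the start, a start peak was present in both treated lists in 87.5% and in both Ctrl lists in 87.3%, and in neither Ctrl list in 8.13%. Among 15421 genes with no gained region the same shares were 56.6%, 55.9% and 31.5%. These PolII shares are a description, since they come from the 4 lists used to choose the regions. Leaving out genes with a gained start also removes some starts that lack a Ctrl peak, and the 15421 genes include genes without PolII at the start. The start was open in all 3 Ctrl ATAC lists in 74.5% of the 369 genes and in 52.1% of the others.
Coverage along genes of 5 kb or more was read at 20 points from start to far end. In 351 genes with a gained region in the body or at the far end, PolII peaks covered 25.5% and 19.4% of points in the last 20% of the gene in the treated lists and 5.91% and 3.13% in Ctrl. In the first 5 kb past the far end they covered 28.3% and 17.6% in treated and 8.95% and 8.77% in Ctrl lists. These differences follow from how the genes were chosen. In the hairpin lines, which were not used for the choice, the last 20% was covered to 8.90% and 8.48% in shHDAC6 and to 17.5% and 15.6% in shCtrl cells.
In 7645 other genes with a start peak in all 4 lists, the last 20% was covered to 11.8% and 5.94% in treated and 6.13% and 2.41% in Ctrl cells. The groups overlapped, since treated list 2 (5.94%) was below Ctrl list 1 (6.13%). Treated was above Ctrl only between lists of the same number, list 1 called on q and list 2 called on p. There it was 4.15% and 4.02% in shHDAC6 and 6.46% and 5.94% in shCtrl cells. shHDAC6 was thus below shCtrl in both sets of genes.

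**Figure D3:**
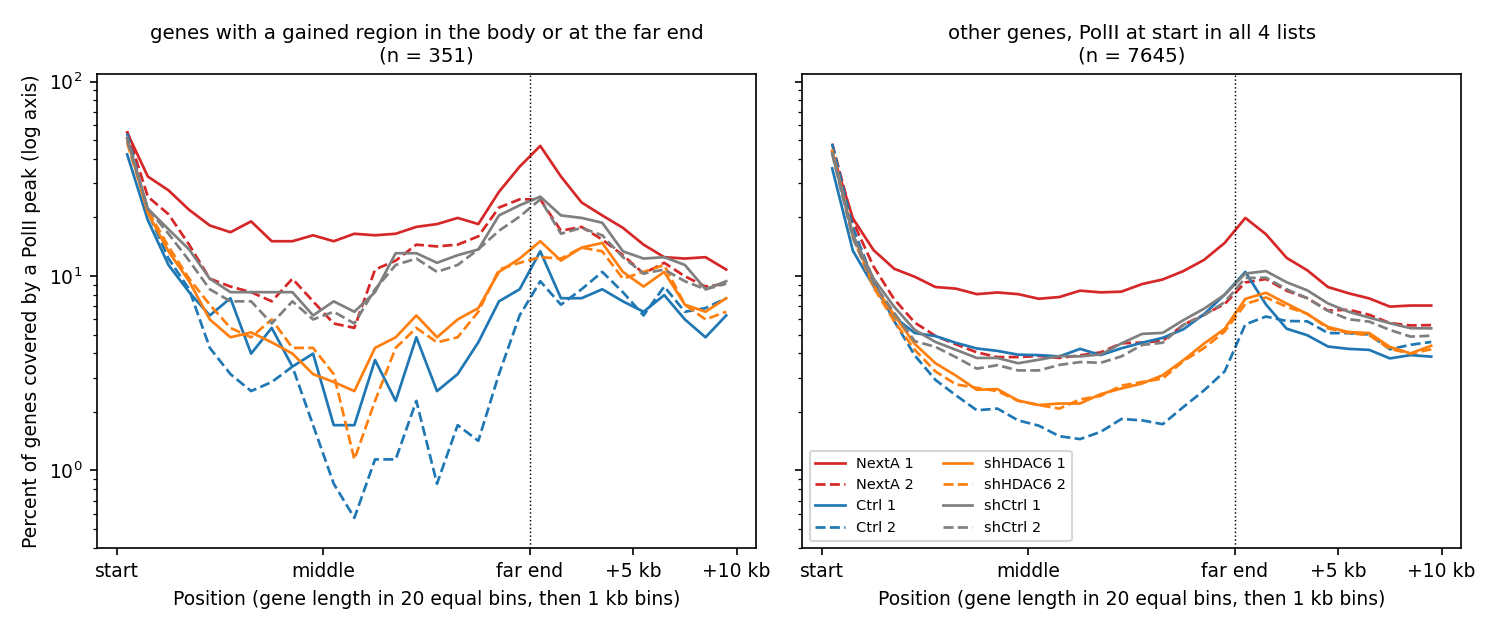
Percent of genes covered by a PolII peak (log axis) at 20 points along the gene and at 1 kb steps past the far end, for 351 genes with a gained region in the body or at the far end (left) and 7645 other genes with PolII at the start (right), with a line for each list (solid for replicate 1, dashed for replicate 2). On the left, treated lists covered 25.5% and 19.4% of the last 20%, Ctrl lists 5.91% and 3.13%, and on the right treated lists covered 11.8% and 5.94% and Ctrl lists 6.13% and 2.41%.

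Open chromatin at the gained regions did not separate treated from Ctrl cells. An ATAC peak overlapped 113, 89 and 92 of the 564 regions in the treated lists, and 114, 92 and 100 of them in the Ctrl lists. The groups overlapped, at mean shares of 17.4% ± 2.32 and 18.1% ± 1.97 (SD, n = 3 each), a difference of −0.71 percentage points (two-sided exact permutation over lists, p = 0.6, lowest possible 0.1). The sign turned without the treated list 2 (0.09) and without Ctrl list 1 (0.35), and with peaks of −log10 q of 5 or more (1.42). At regions present in all 4 lists the shares averaged 90.8% and 91.1%. None of the 564 had an ATAC peak in every treated and no Ctrl list (background 0.0957%) or in every Ctrl and no treated list (background 0.0379%). No ATAC peak was found in any of these 6 lists at 398 gained regions (70.6%), and a peak in all 6 at 45. All 6 lists also lacked a peak at 43.3% of all other merged regions. The same held for 26.1% of regions with both treated lists and 1 Ctrl list. It held for 11584 of the 15248 regions with 1 treated list and no Ctrl list, a larger share than at the gained regions. The lack of ATAC peaks was thus not particular to the gained regions. Openness differed by place: between genes 47.2%, 45.8% and 41.7% of gained regions were open in treated and 47.2%, 44.4% and 43.1% in Ctrl cells, against 15.5%, 10.9% and 11.6% and 16.1%, 11.2% and 15.2% in gene bodies.

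Acetylated H3 was found at 22.2% and 3.55% of the gained regions in the treated lists and at 0% and 1.42% in the Ctrl lists. Both treated lists were above both Ctrl lists, by 12.15 percentage points on average (12.9% ± 13.2 and 0.709% ± 1.0, SD over 2 lists each). The p of an exact two-sided permutation over lists was 0.33, the lowest that 2 against 2 allows. The lists were very unlike in length, with 28473 and 61186 peaks in the treated and 1418 and 41411 in the Ctrl lists, and list 1 of each group was called on q and list 2 on p. Without the treated list 1 the difference was 2.84, and it was 0 with every list held to the length of the shortest, and the part of list length in it was not tested. At regions in all 4 PolII lists the treated lists held 92.8% and 56.9% and the Ctrl lists 10.2% and 26.9%, a larger difference than at the gained regions. The mark was in both treated and no Ctrl list at 4 gained regions (0.709%, background 8.45%). The same share was 31.0% for regions in all 4 PolII lists and 6.61% for those with both treated lists and 1 Ctrl list. It was 0.269% for those with 1 treated list and no Ctrl list, below the gained regions. The 4 gained regions were at an end of APOL6, an apolipoprotein L, in the bodies of LRRFIP1, a nucleic acid sensor, and PPCDC, an enzyme of coenzyme A synthesis, and 8957 bp from IRF2BPL. APOL6 had a PolII fold of 3.67 and 3.06, LRRFIP1 2.99 and 2.45, PPCDC 2.83 and 2.46 and the region near IRF2BPL 2.32 and 2.68.

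HDAC6 ChIP peaks overlapped 0 of the gained regions in either treated list and 6.03% and 8.69% of them in the Ctrl lists, where replicate 1 used a CST and replicate 2 a Novus antibody. The difference was −7.36 percentage points (0% ± 0 and 7.36% ± 1.88, SD over 2 lists each), again with an exact permutation p of 0.33. With equal list length it was 0, since the treated Novus list held 235 peaks, whose names carry a prefix otherwise seen in shCtrl lists. The shares were 3.01% and 0.887% in shHDAC6 ChIP lists and 3.55% and 5.50% in untreated CUT&Tag lists, where the peak names of list 2 carry a prefix of the kind used for a hairpin line. At regions in all 4 PolII lists the treated lists held 5.78% and 0.254%, and the Ctrl lists 79.8% and 29.1%. A peak in both Ctrl and no treated list was found at 2 gained regions (0.355%, background 6.61%). The same share was 21.9% for regions in all 4 PolII lists and 6.02% for those with both treated lists and 1 Ctrl list. It was 0.105% for those with 1 treated list and no Ctrl list, below the gained regions.

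The hairpin lines gave the PolII measure in samples that the rule did not use. A PolII peak overlapped 25.7% and 27.5% of the gained regions in shHDAC6 cells and 47.3% and 44.0% in shCtrl cells, which do not overlap. The means were 26.6% ± 1.25 and 45.7% ± 2.38 (SD, n = 2 each). The difference of −19.06 percentage points had an exact permutation p of 0.33, the lowest possible. With equal list length the difference was −8.33, and with peaks of −log10 q of 5 or more it was 0.18. The shCtrl lists kept 56.6% and 50.6% of their peak numbering and the shHDAC6 lists 72.7% and 75.1%, and the part of this in the difference was not tested.
At regions in all 4 lists the shHDAC6 and shCtrl means were both 95.1%, and at regions with both treated lists and 1 Ctrl list they were 54.4% and 62.4%. Regions with 1 treated list and no Ctrl list had 5.59% and 5.74% in shHDAC6 and 10.3% and 9.16% in shCtrl cells, so the lower share in shHDAC6 was not confined to the gained regions. By place, far-end regions had 34.3% and 32.4% in shHDAC6 and 59.8% and 55.9% in shCtrl cells, body regions 22.2% and 24% against 44.7% and 42.2%, and regions between genes 19.4% and 20.8% against 33.3% and 27.8%. Region by region, 84 gained regions (14.9%, background 2.57%) had a peak in both shCtrl and no shHDAC6 list, and 8 (1.42%, background 1.22%) the reverse. Of the gained regions with a peak in both shCtrl lists, 38.5% had none in either shHDAC6 list, and the same share was 47.3% for regions with 1 treated list and no Ctrl list, 55% for those with 1 Ctrl list and no treated list, 13.8% for those with both treated lists and 1 Ctrl list, and 0.685% for those in all 4. The share was thus not particular to the gained regions. A peak was present in all 4 hairpin lists at 86 (15.2%) and in none at 235 (41.7%). Of the 564, 329 (58.3%) therefore carried PolII in at least 1 untreated hairpin list although both Ctrl lists lacked it. No hairpin-list peak was found at 57.7% of all other merged regions and 85.4% of regions with 1 treated list and no Ctrl list. The same share was 26.7% for regions with both treated lists and 1 Ctrl list.
ATAC in the hairpin lines covered 11.2%, 8.51% and 7.98% of the gained regions in shHDAC6 and 11.2%, 10.5% and 10.3% in shCtrl cells (difference −1.42 points, p = 0.4 by the same exact permutation, n = 3 each). The gained regions with an ATAC peak in every shCtrl and no shHDAC6 list were 2 (background 0.319%), and 0 had the reverse (background 0.146%). In none of the 28 lists outside the rule was a peak found at 100 gained regions (17.7%), with no such share computed for other regions.

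**Figure D4:**
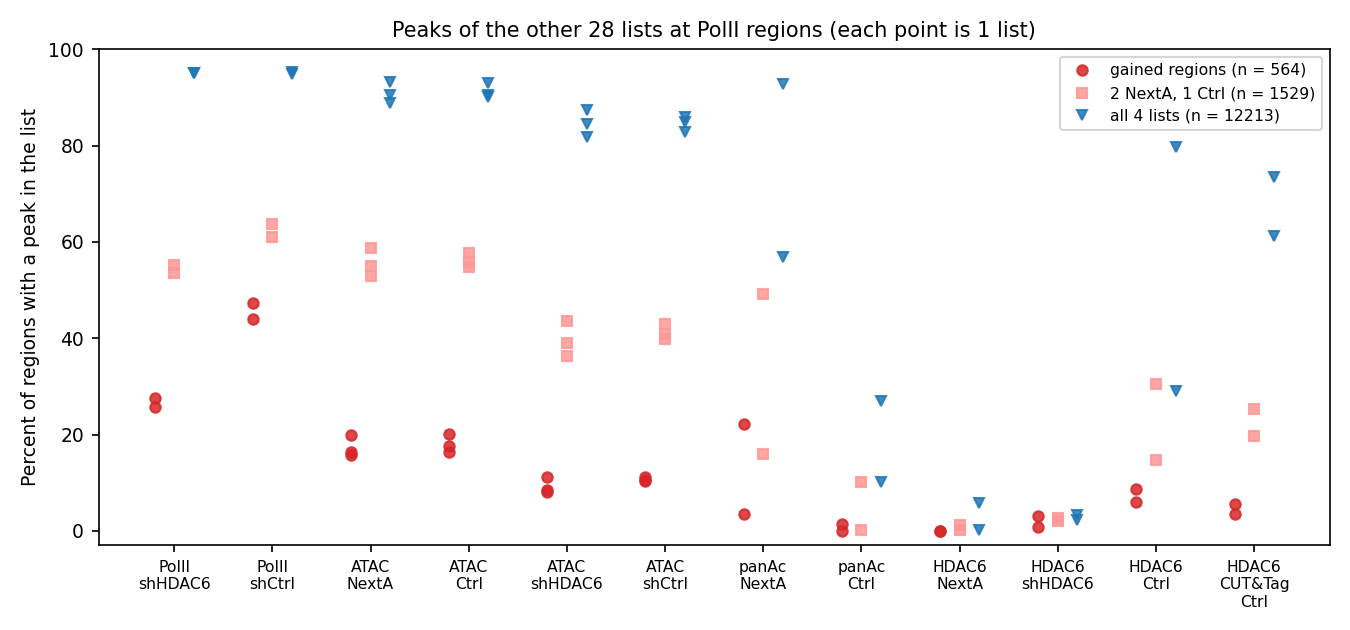
Percent of PolII regions that overlap a peak in each of the 28 lists not used by the rule, with 1 point per list, for gained regions, regions with both Nexturastat A lists and 1 Ctrl list, and regions in all 4 lists. Gained regions had a PolII peak in 25.7% and 27.5% in shHDAC6 and 47.3% and 44.0% in shCtrl lists, and their ATAC shares overlapped between NextA and Ctrl.

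Of 217 genes in 13 lists, which covered pathways that HDAC6 inhibition could bear on and markers of other cell types, 2 had a gained region at an end and 3 in the body. Of all 19970 coding genes 207 (1.04%) and 292 (1.46%) did, so the listed genes stood near the background. HDAC5 had the region shared with G6PC3. HSF1, the heat shock regulator, had one in its body (3.10 and 2.74 in treated, 2.77 and 3.34 in shHDAC6, 2.29 and 2.26 in shCtrl cells). The p53 targets MDM2, its ubiquitin ligase, and SESN2, a stress-induced inhibitor of mTORC1 signalling, had 3.47 and 3.28, and 3.54 and 2.65, in treated cells. MDM2 also had 2.46 in shHDAC6 list 2 and 2.70 in shCtrl list 2, and SESN2 2.60 and 2.67 in shCtrl cells. The other 9 lists had 0 genes with a gained region, and with 10 to 18 genes each they are too short for a 0 to be read against that background.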

How the data were processed

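Peak lists of 32 samples were analysed, and 9 inputs and negative controls are not used here. Per the submitters' processing notes, the peak caller MACS2 2.2.7.1, the aligner Bowtie2 2.4.4, Trim Galore 0.6.7 and the annotation package ChIPseeker 1.28.2 were among the tools, and the build was hg38. The lists were deposited per sample without read counts, so the depth is unknown. Each peak has a deposited fold over background (a linear ratio), a deposited −log10 of p and of q, and a deposited score, which is 10 times −log10 p or q as a whole number. Whether a list was called on p or on q was inferred from this score, since the caller settings were not given in the sources used. Folds were used within their own list only.

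Peaks of the 4 parental PolII lists were merged (overlap of at least 1 bp), and each list was scored as present or absent per region. Gene positions came from a RefSeq table of GRCh38.p14. Shares were compared by exact permutation tests over lists, two-sided, with a threshold of 0.05, and the code was tested on simulated lists. Python 3.11.15, pandas 2.3.3, numpy 2.4.6 and scipy 1.17.1 were used.

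The members, lists and rules were chosen with earlier results of these data known. Named were the 10 strongest regions at gene ends, 8 in bodies and 6 between genes, the 5 longest, the 4 genes with most body regions, up to 4 with pan-acetyl gained, all at starts alone, and members of the gene lists, of which 1 is not reported here. The strongest regions without a hairpin-line peak were sought too and are among those named. No region met the rule for gained ATAC. Same-numbered treated and Ctrl ATAC lists deviated together (correlations of deviations 0.596, 0.232 and 0.243), so a test paired by number is given beside the unpaired one. Lists 2 and 3 correlated as much across numbers (0.256 and 0.245), so list 1, called on q, stands apart from lists 2 and 3, called on p, and the data do not tell numbers 2 and 3 apart.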

Additional observations from a re-analysis of the deposited data

How the results depend on the processing

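The numbers of gained and lost regions moved with most settings, and the cause was not tested. With −log10 q of 5 or more, 29 regions were gained (15 at gene ends, 8 in bodies, 6 between genes), most of them not among the 564. With equal list length (22926 peaks per list) 297 were gained (137 in bodies, 47 between genes), and with 50% coverage of the region 205 (55, 112 and 38) against 25 lost. Leaving out 1 PolII list leaves presence and absence in its group to be judged on 1 list, which raises the counts in both directions by construction. It gave 1200 to 12379 gained, 367 to 6809 lost, 431 to 1451 at gene ends, 593 to 8828 in bodies and 137 to 2100 between genes. A window of 3 kb put 260 at gene ends, and with all gene types 39 lay between genes. Merging peaks within 1 kb left 543. Far ends alone outnumbered starts alone in every setting tried. The counts were 5 against 1 at −log10 q of 5 or more, where most regions were not among the 564. They were 61 against 8 at equal list length and 165 against 155 without Ctrl replicate 2, the closest.

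The ATAC difference turned to 1.42 points with −log10 q of 5 or more, was −2.42 (exact permutation p = 0.3) at equal list length, and spanned −2.04 to 0.35 over lists left out. The pan-acetyl difference was 0.00 at equal list length and spanned 2.84 to 21.45 over lists left out. Taken relative to the share at regions in all 4 lists it was −44.12, since those regions differed more. The HDAC6 ChIP difference was 0.00 both at −log10 q of 5 or more and at equal list length, spanned −8.69 to −6.03 over lists left out, and was 44.06 relative to regions in all 4 lists. The PolII difference between hairpin lines turned to 0.18 with −log10 q of 5 or more and spanned −20.74 to −17.38 over lists left out.

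The replicate block changed no count by construction, and no difference was past the threshold with it: p was 0.25 for the paired ATAC difference of −0.71 and 0.5 for pan-acetyl (12.15), HDAC6 (−7.36) and hairpin PolII (−19.06), the smallest these designs allow. Correlations of same-numbered deviations were 0.449 for the parental PolII lists, 0.143 for HDAC6, 0.0125 for pan-acetyl and 0.00471 for the hairpin PolII lists. The alternative settings for the counts at starts and at far ends alone were added after the data were seen. Without read counts, absence of a peak does not measure absence of PolII.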

Other observations

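The gained regions were unevenly spread over chromosomes. Chromosome 19 held 82 of the 564 (14.5%), while it held 6.67% of all merged PolII regions, so that 2.45% of its regions were gained. On chromosome 17, 55 were gained (1.85% of its regions), on chromosome 16, 37 (1.82%), and on chromosome 22, 19 (1.59%). At the other end, chromosome 18 held 3 (0.407%) and chromosome 4 held 8 (0.465%). No test was made of this spread.

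Some peak names do not match their group: those of the treated Novus HDAC6 list carry a prefix that otherwise belongs to shCtrl lists, and those of untreated CUT&Tag list 2 carry a prefix of the kind used for a hairpin line. The labels were followed, and the 0 gained regions with an HDAC6 peak in the Novus list and the CUT&Tag shares are to be read with this in view.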
